A study of Mus musculus with 16 samples.

Results

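Transcripts of 10 target genes of serum response factor (SRF), its MRTF coactivators and the coactivator YAP were measured in cultured mouse neurons given NP24, Tβ10 or Tβ4 or the control. The genes were Srf, Acta2, Myl9, Tagln, Tagln2, Cnn2, Flna, Vcl, Ccn1 and Ccn2, chosen by name with earlier results of these data known. All 10 were found among the 45724 genes of the deposited tables. The cells were primary neurons from brains of C57BL/6 mice at postnatal day 0, cultured with NP24, with Tβ10, with Tβ4, or with DPBS (a phosphate-buffered saline) alone as the control, and every group had 4 libraries. The series title ties the peptides to the subcommissural organ, a secretory structure of the brain. The labels used here give no dose, no time of exposure and no number of animals behind a library. They do not say whether libraries of a group came from separate cultures, so each p measures the spread between these samples, which may be technical.

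SRF is a transcription factor that binds a DNA element called the CArG box in the promoters of cytoskeletal genes. Its MRTF coactivators are held out of the nucleus by actin monomers and enter it when actin polymerizes, so SRF targets follow the state of actin. Tβ10 and Tβ4 belong to the β-thymosins, whose members sequester monomeric actin. YAP and its relative TAZ are coactivators that bind TEAD factors, also respond to actin tension and cell shape, and share targets such as Ccn1 and Ccn2 with SRF. In the brain, high levels of the contractile targets are known from the mural cells of blood vessels and from meningeal fibroblasts, while neurons and glia use SRF and the broadly expressed targets for the cytoskeleton and for activity-dependent transcription.

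Levels are normalized counts: the reads of a gene in a library over the size factor by which the authors scaled that library. Between 11642242 and 38254320 reads per library fell in genes, and 1 read was worth 0.536 to 1.71 normalized counts. The 10 neuron marker genes examined, among them Map2 and Tubb3, summed to 62926 to 70047 normalized counts in the control libraries, and astrocyte and oligodendrocyte lineage markers were detected in every library as well. Tβ4 library 1 stood apart with 24.3% of its reads in mitochondrial ribosomal RNA and the lowest neuron marker sum. Tβ4 library 2 stood apart from its own group, with a neuron marker sum of 78280 against 52811 to 60728 in the other Tβ4 libraries. That sum was close to the highest with NP24 (77372). The differences of Tβ4 from the control are also given without library 1 and without library 2.

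Promoter sequences, 250 bases before to 50 bases from the transcript start, were available for 8 of the 10 genes from RefSeq on build GRCm38.p6. Ccn2 and Tagln were not among them. A CArG box, searched on both strands in its strict consensus, lay in 4 of the 8 promoters, against 535 of all 32851 promoters (1.63%). Counted from the transcript start, Srf had a pair of them, beginning at positions -82 and -62, and Myl9, Vcl and Cnn2 had 1 each, at -161, -227 and -56. The TEAD core GGAATG or its complement CATTCC lay in 5 promoters, those of Acta2, Flna, Ccn1, Tagln2 and Vcl, against 4817 of all promoters (14.7%). The sequences of 5 genes are shown as examples. Each holds either motif or both, and Srf, Myl9, Acta2 and Ccn1 were called by limma in at least 1 comparison described here. Flna also holds the TEAD core and was called with NP24, but its sequence is not shown. Vcl holds both motifs and was called by limma in none of the 6 comparisons with all libraries. The same was true of Cnn2, with a CArG box, and Tagln2, with the TEAD core. All 8 promoters available hold either motif or both, in genes called and not called alike. Capitals mark the CArG boxes in Srf, Myl9 and Vcl and the TEAD core in Vcl, Acta2 and Ccn1. The windows are chr17:46556113-46556412 (minus strand) for Srf, chr2:156775214-156775513 (plus strand) for Myl9, chr14:20929148-20929447 (plus strand) for Vcl, chr19:34255324-34255623 (minus strand) for Acta2 and chr3:145649936-145650235 (minus strand) for Ccn1. A match is a description of these letters only, and its absence says only that these letters are not in the window.
Srf: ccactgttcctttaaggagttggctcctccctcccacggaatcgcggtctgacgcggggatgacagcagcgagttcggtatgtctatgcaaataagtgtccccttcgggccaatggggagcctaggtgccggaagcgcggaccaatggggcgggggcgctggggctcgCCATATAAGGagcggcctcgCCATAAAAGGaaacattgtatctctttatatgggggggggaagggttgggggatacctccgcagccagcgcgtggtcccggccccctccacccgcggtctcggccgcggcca
Myl9: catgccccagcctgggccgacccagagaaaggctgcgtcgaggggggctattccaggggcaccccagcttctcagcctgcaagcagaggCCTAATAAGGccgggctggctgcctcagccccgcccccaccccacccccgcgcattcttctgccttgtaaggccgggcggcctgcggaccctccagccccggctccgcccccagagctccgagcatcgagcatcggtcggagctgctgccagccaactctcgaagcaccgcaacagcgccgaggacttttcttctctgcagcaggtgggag
Vcl: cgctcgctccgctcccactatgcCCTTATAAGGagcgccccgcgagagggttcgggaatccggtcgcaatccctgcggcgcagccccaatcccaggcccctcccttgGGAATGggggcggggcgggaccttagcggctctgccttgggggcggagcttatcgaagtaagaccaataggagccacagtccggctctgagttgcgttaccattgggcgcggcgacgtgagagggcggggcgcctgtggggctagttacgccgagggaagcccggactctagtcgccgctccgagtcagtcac
Acta2: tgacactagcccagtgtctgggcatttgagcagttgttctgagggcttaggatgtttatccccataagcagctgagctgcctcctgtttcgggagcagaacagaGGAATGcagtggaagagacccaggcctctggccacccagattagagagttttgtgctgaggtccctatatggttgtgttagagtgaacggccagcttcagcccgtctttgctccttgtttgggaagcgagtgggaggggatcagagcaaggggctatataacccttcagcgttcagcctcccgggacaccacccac
Ccn1: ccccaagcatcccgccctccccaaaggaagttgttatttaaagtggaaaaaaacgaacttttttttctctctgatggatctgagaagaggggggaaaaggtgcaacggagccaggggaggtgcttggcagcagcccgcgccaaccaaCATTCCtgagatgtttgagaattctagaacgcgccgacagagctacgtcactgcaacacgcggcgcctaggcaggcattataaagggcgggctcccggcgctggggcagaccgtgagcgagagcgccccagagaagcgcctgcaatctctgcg

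The first question was which of the 10 genes differed between each peptide and the control. With NP24 all 10 estimates were negative, and 5 genes fell: Acta2, Srf, Flna, Ccn1 and Ccn2. Of all 21774 genes tested in that comparison 2.63% were called, 1.47% as lower and 1.16% as higher. With Tβ10 all 10 estimates were again negative and 4 genes fell: Acta2, Srf, Ccn1 and Ccn2, where 0.633% of 21960 genes were called, 0.533% as lower. With Tβ4 no gene of the 10 was called and 8 of the 10 estimates were positive, the exceptions being Srf and Flna. These comparisons share the 4 control libraries. With libraries scaled by their totals in place of the size factors, calls over all genes were 256 lower and 508 higher with NP24, against 319 and 253 as deposited. They were 67 lower and 56 higher with Tβ10, against 117 and 22, and all 10 estimates stayed negative with both peptides. Under that scaling 2 of the 10 genes, Acta2 and Ccn1, were called with Tβ10. A gene was called where the adjusted p was under 0.05, from limma on log2(normalized count + 1) with Benjamini-Hochberg adjustment over every gene at 10 or more normalized counts in 4 or more libraries of the fit. All 10 genes reached that level in every control library. Myl9 entered the Tβ10 fit only through the controls, so the sign of its estimate there was fixed in advance. Acta2 reached that level in 1 NP24 library. In these bulk samples, fewer cells of a type and less RNA per cell cannot be told apart.

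All NP24 libraries lay below all controls for Srf, Flna, Vcl, Ccn1 and Ccn2, as in 4.77% of genes tested, and all Tβ10 libraries for Srf, Tagln2, Ccn1 and Ccn2, as in 3.95%. Myl9 also lay below all controls with Tβ10, but it entered that fit only through the controls, where it is high, and had to differ. None of the 10 lay above all controls with NP24 or Tβ10, as 5.07% and 2.96% of genes did. With Tβ4 Flna lay below all controls, as in 2.17% of genes, and Myl9 and Ccn2 above, as in 2.26%. The median log2 difference of the 10 genes was -0.82 with NP24, -0.79 with Tβ10 and 0.55 with Tβ4, where the median over all genes tested was -0.00 in each of these comparisons. The number of genes called with NP24 was 2 without NP24 library 1 or 3 or control library 1, 3 or 4, and 3 without control library 2, while Acta2 and Flna were called in all 8 fits that left out 1 library. In the fit without NP24 library 1, Acta2 passed the filter only through the controls and had to differ. The number called also changed with other settings. With NP24 it was 3 when genes of low counts were kept in the test and 1, Acta2, when the spread was taken from all 16 libraries. With Tβ10 it was 0 without Tβ10 library 3 or 4 or control library 1, 3 or 4, 1 without control library 2, and 1, Ccn1, with the spread of all 16 libraries. For Tβ4, limma and edgeR called 0 genes of all 22205 (0% of those tested), with 1568 and 1632 at an unadjusted p under 0.05, and DESeq2 called 82. Among the 10 genes, 5 had an unadjusted limma p under 0.05 with Tβ4, and DESeq2 called Flna lower and Ccn2 higher. Without Tβ4 library 2, limma called Flna lower and Ccn1 and Ccn2 higher, and without Tβ4 library 1 it called none of the 10.

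**Figure D1:**
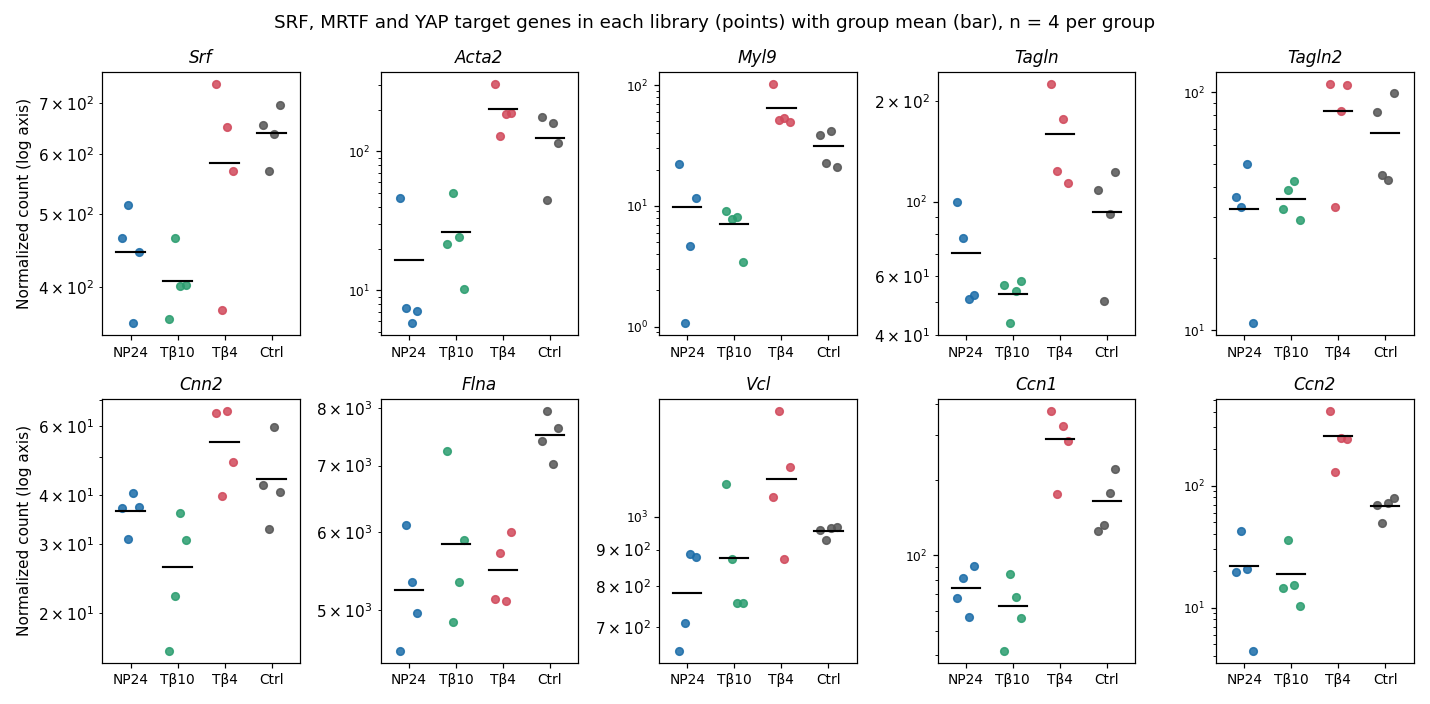
Normalized counts (log axis) of the 10 genes in each of the 16 libraries, 1 panel per gene, with points for libraries and a bar for the mean of the 4 libraries of NP24, Tβ10, Tβ4 and the control. For Ccn2, the 4 Tβ4 libraries (128 to 408) lie above, and the NP24 (4.45 to 42.6) and Tβ10 libraries (10.2 to 35.5) below, all controls (49.6 to 79.1).

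Srf encodes the transcription factor itself and is among its own targets (ENSMUSG00000015605.6, GRCm38 chr17:46548329-46556175, minus strand). It had 465, 514, 358 and 446 normalized counts in the NP24 libraries 1 to 4, 363, 465, 401 and 402 in the Tβ10 libraries, 743, 374, 651 and 569 in the Tβ4 libraries and 656, 570, 637 and 697 in the controls. All NP24 and all Tβ10 libraries lay below all controls, whereas the Tβ4 libraries spanned the control range and library 2 lay far below the other Tβ4 libraries. Srf fell with NP24 (-0.53 on the log2 scale, SE 0.13, limma adjusted p = 0.0367) and with Tβ10 (-0.65, SE 0.13, limma adjusted p = 0.0304). With Tβ4 the difference was -0.17 (95% interval -0.58 to 0.23), and it was -0.30 without Tβ4 library 1 and 0.03 without library 2. The NP24 call did not hold without NP24 library 1 or 3 or any 1 of the controls, with estimates between -0.60 and -0.43 and limma adjusted p up to 0.15. The Tβ10 call did not hold without Tβ10 library 3 or 4 or any 1 of the controls, with estimates between -0.72 and -0.60 and limma adjusted p up to 0.149. It also did not hold with libraries scaled by their totals (limma adjusted p = 0.065), with a replicate block (0.072) or with the spread of all 16 libraries (0.125). The NP24 call did not hold with no filter on low counts (0.0544) or with the spread of all 16 libraries (0.187).

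Of the contractile genes, Acta2, the actin of smooth muscle (ENSMUSG00000035783.9, chr19:34241090-34255590, minus strand), had the largest fall with both NP24 and Tβ10 among the 10. It had 46.3, 7.46, 5.80 and 7.12 normalized counts with NP24, 21.4, 49.9, 24.3 and 10.2 with Tβ10, 306, 128, 187 and 189 with Tβ4 and 177, 44.9, 160 and 115 in the controls. NP24 library 1 and control library 2 overlapped, as did Tβ10 library 2 and control library 2, while the Tβ4 libraries were above all NP24 and Tβ10 libraries. The 3 low NP24 libraries rest on 5 to 8 reads each. The estimates were -3.19 with NP24 (SE 0.56, limma adjusted p = 0.00352) and -2.22 with Tβ10 (SE 0.47, limma adjusted p = 0.0361). Over the 8 fits that left out 1 library the estimate ran from -3.84 to -2.91. NP24 without library 1 gave a larger difference, but Acta2 entered that fit only through the controls, where it is high, and had to differ. The Tβ10 call did not hold without Tβ10 library 3 or 4 or control library 1, 3 or 4 (estimates from -2.64 to -1.86, limma adjusted p up to 0.225), nor with a replicate block or with the spread of all 16 libraries. With Tβ4 the mean was 203 ± 74.5 against 124 ± 59.0 in the controls (SD, n = 4 each), a log2 difference of 0.81 (95% interval -0.04 to 1.65, limma adjusted p = 0.743), which was 0.58 without Tβ4 library 1 and 1.00 without library 2.

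Myl9 encodes a regulatory light chain of myosin II, which drives contraction (ENSMUSG00000067818.6, chr2:156775420-156781658, plus strand). It had 22.2, 1.07, 4.64 and 11.6 normalized counts with NP24, 9.11, 7.77, 8.11 and 3.41 with Tβ10, 102, 51.1, 53.8 and 49.7 with Tβ4 and 39.0, 22.5, 41.9 and 20.9 in the controls. Every Tβ10 library lay below, and every Tβ4 library above, all controls, and only NP24 library 1 reached the control range. With Tβ10, Myl9 entered the fit only through the controls, where it is high, and had to differ. Its difference from the controls did not pass the threshold with NP24 (95% interval -3.46 to -0.55, limma adjusted p = 0.132) or with Tβ10 (-1.99, SE 0.55, limma adjusted p = 0.126), and with Tβ4 it was 1.02 (SE 0.40, limma adjusted p = 0.623), or 0.78 without Tβ4 library 1 and 1.11 without library 2. These levels rest on 1 to 24 reads per library with NP24 and 2 to 17 with Tβ10, so their precision is low. In the authors' deposited table for Tβ10, Myl9 was lower (log2 fold change -2.07, adjusted p 0.0401).

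The remaining contractile genes encode small actin-binding proteins, and none of them was called with any peptide against the control. Tagln, transgelin of smooth muscle (ENSMUSG00000032085.5, chr9:45929619-45936058, minus strand), had 51.0 to 100 normalized counts with NP24, 43.3 to 58.0 with Tβ10, 114 to 226 with Tβ4 and 50.6 to 123 in the controls. Its differences from the control were -0.39, -0.74 and 0.79 with NP24, Tβ10 and Tβ4. Tagln2, its broadly expressed relative (ENSMUSG00000026547.15, chr1:172500047-172507380, plus strand), had 10.7 to 49.9 with NP24, 29.0 to 42.3 with Tβ10, 32.9 to 109 with Tβ4 and 42.7 to 99.1 in the controls. All Tβ10 libraries lay below all controls, and the differences were -1.12, -0.82 and 0.25 with NP24, Tβ10 and Tβ4. Cnn2, calponin of many cell types (ENSMUSG00000004665.10, chr10:79988584-79996062, plus strand), overlapped the controls with every peptide and differed by -0.24, -0.75 and 0.31. Without Tβ4 library 1 the Tβ4 differences were 0.61 for Tagln, 0.08 for Tagln2 and 0.22 for Cnn2, and without library 2 they were 0.89, 0.65 and 0.45. None was called. The exons of Tagln are overlapped over 62.4% of their length by the antisense gene Gm48529, whose means moved in the same order (49.1 with NP24, 36.5 with Tβ10, 139 with Tβ4 and 73.6 in the controls). Pcsk7, also on the other strand, overlaps 5.43% of these exons and averaged 669 with NP24, 648 with Tβ10, 545 with Tβ4 and 594 in the controls. The strand setting of the counting is not given in the sources used here, so reads of overlapping genes cannot be told apart and values of Tagln are uncertain.

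Flna encodes filamin A, which crosslinks actin filaments, and was the most highly expressed of the 10 genes (ENSMUSG00000031328.15, chrX:74223461-74249820, minus strand). It had 4547, 6092, 5332 and 4966 normalized counts with NP24, 7240, 4855, 5341 and 5878 with Tβ10, 5124, 5715, 5101 and 5999 with Tβ4 and 7417, 7950, 7031 and 7644 in the controls. All NP24 and all Tβ4 libraries lay below all controls, and of the Tβ10 libraries only library 1 reached them. Flna fell with NP24 (-0.53, SE 0.09, limma adjusted p = 0.00366). The differences with Tβ10 (-0.38, SE 0.12, limma adjusted p = 0.211) and with Tβ4 (-0.46, SE 0.12, limma adjusted p = 0.458) had the same sign and did not pass. With Tβ10 it passed in the fit without Tβ10 library 1 (limma adjusted p = 0.02), and with Tβ4 in the fit without Tβ4 library 2 (-0.48, limma adjusted p = 0.0243) but not without library 1 (-0.42, limma adjusted p = 0.994). Over the 8 fits that left out 1 library, the NP24 estimate of Flna ran from -0.60 to -0.46 and was called in each. It was not called with the spread of all 16 libraries (limma adjusted p = 0.0671).

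Vcl encodes vinculin, which links actin to cell adhesions (ENSMUSG00000021823.10, chr14:20929398-21033676, plus strand). It had 649, 710, 888 and 879 normalized counts with NP24, 1114, 873, 758 and 757 with Tβ10, 1067, 1408, 873 and 1176 with Tβ4 and 959, 930, 964 and 968 in the controls. The 4 NP24 libraries lay below the controls, whose own spread was small (955 ± 17.3, SD, n = 4), and the Tβ10 and Tβ4 libraries lay on both sides of them. Vcl was not called with NP24 (-0.30, limma adjusted p = 0.185), with Tβ10 (-0.14, limma adjusted p = 0.73) or with Tβ4 (0.22, limma adjusted p = 0.852; 0.24 without Tβ4 library 1 and 0.11 without library 2). The gene Ap3m1 on the other strand shares 25.5% of its exon bases, so values of Vcl are uncertain, and Ap3m1 itself differed from the control by -0.11, 0.05 and -0.07 with NP24, Tβ10 and Tβ4.

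Ccn1 encodes a secreted matricellular protein that binds integrins and is a standard YAP and SRF target (ENSMUSG00000028195.4, chr3:145646976-145649981, minus strand). It had 67.6, 81.0, 56.8 and 90.7 normalized counts with NP24, 41.8, 84.3, 68.5 and 56.3 with Tβ10, 374, 176, 327 and 284 with Tβ4 and 125, 132, 177 and 220 in the controls. All NP24 and all Tβ10 libraries lay below all controls, and with Tβ4 only library 2 fell within the control range. Ccn1 fell with NP24 (-1.12, SE 0.26, limma adjusted p = 0.0227) and with Tβ10 (-1.38, SE 0.28, limma adjusted p = 0.0269). With Tβ4 it averaged 290 ± 84.7 against 164 ± 44.1 in the controls (SD, n = 4 each), a difference of 0.81 (SE 0.26, limma adjusted p = 0.493) that was 0.67 without Tβ4 library 1 (limma adjusted p = 0.994) and 1.03 without library 2 (limma adjusted p = 0.0255). The NP24 call did not hold without NP24 library 1 or 3 or control library 1, 3 or 4 (limma adjusted p up to 0.0877) or with the spread of all 16 libraries, and the Tβ10 call did not hold without Tβ10 library 3 or 4 or any 1 of the controls (limma adjusted p up to 0.129).

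Ccn2 encodes connective tissue growth factor, a secreted protein of the same family (ENSMUSG00000019997.11, chr10:24595442-24598683, plus strand). It had 19.5, 42.6, 20.9 and 4.45 normalized counts with NP24, 14.5, 35.5, 15.3 and 10.2 with Tβ10, 408, 128, 248 and 243 with Tβ4 and 69.7, 49.6, 71.7 and 79.1 in the controls. No group given a peptide overlapped the controls: NP24 and Tβ10 lay below them and Tβ4 above. Ccn2 fell with NP24 (-1.90, SE 0.51, limma adjusted p = 0.048) and with Tβ10 (-1.91, SE 0.42, limma adjusted p = 0.0446). With Tβ4 the difference was 1.82 (95% interval 1.13 to 2.50, limma adjusted p = 0.375), and it was 1.55 without Tβ4 library 1 (limma adjusted p = 0.994) and 2.11 without library 2 (limma adjusted p = 0.0016). In the authors' deposited table for Tβ4, Ccn2 was the single gene of the 10 with an adjusted p under 0.05, at a log2 fold change of 1.93 (adjusted p 0.0128). The NP24 call did not hold without NP24 library 1, 3 or 4 or any 1 of the controls (estimates from -2.33 to -1.33, limma adjusted p up to 0.152). The Tβ10 call did not hold without Tβ10 library 3 or 4 or any 1 of the controls (estimates from -2.26 to -1.69, limma adjusted p up to 0.207). Both calls were also lost with edgeR (adjusted p = 0.071 with NP24 and 0.0604 with Tβ10), with a pseudocount of 0.1 (limma adjusted p = 0.0589 and 0.0534), with no filter on low counts, with a replicate block and with the spread of all 16 libraries. The Tβ10 call was also lost with libraries scaled by their totals (limma adjusted p = 0.0544). The antisense gene Gm15270 overlaps 23.2% of the Ccn2 exons and averaged 27.2 with NP24, 26.1 with Tβ10, 154 with Tβ4 and 52.7 in the controls, so values of Ccn2 are uncertain in the same way as those of Tagln.

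**Figure D2:**
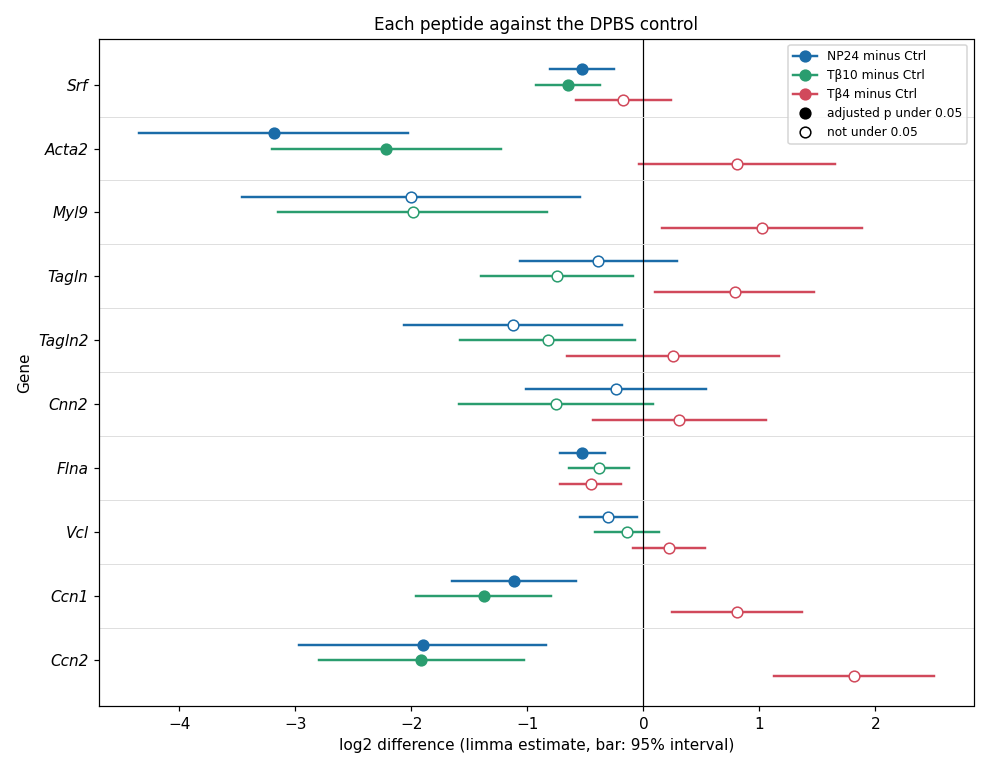
Log2 difference of each of the 10 genes, peptide minus control, for NP24, Tβ10 and Tβ4 (limma estimate from 8 libraries, bar for the 95% interval, filled where the adjusted p was under 0.05). For Ccn2 the estimates are -1.90 with NP24, -1.91 with Tβ10 and 1.82 with Tβ4, whereas those of Flna lie between -0.53 and -0.38.

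The peptides were then compared with each other directly, in 1 fit of all 16 libraries for each of the 3 pairs. Tβ10 and Tβ4 are related peptides, and the labels used here give no dose for either. Between Tβ4 and Tβ10, 5 genes were called and all were higher with Tβ4: Acta2, Myl9, Tagln, Ccn1 and Ccn2, where 1.35% of 24232 genes were called, 1.05% as higher with Tβ4 and 0.297% as lower. Ccn2 averaged 257 ± 115 with Tβ4 and 18.9 ± 11.3 with Tβ10 (SD, n = 4 each), a difference of 3.73 (SE 0.51, limma adjusted p = 0.000441). Acta2 averaged 203 ± 74.5 with Tβ4 and 26.5 ± 16.8 with Tβ10 (3.02, SE 0.56, limma adjusted p = 0.00746). Myl9 averaged 64.3 ± 25.5 with Tβ4 and 7.10 ± 2.52 with Tβ10 (3.01, SE 0.61, limma adjusted p = 0.0141), and Ccn1 differed by 2.18 (SE 0.28, limma adjusted p = 0.000246) and Tagln by 1.53 (SE 0.31, limma adjusted p = 0.014). Libraries of the pair of groups did not overlap, with Tβ4 higher, for these 5 genes and for Cnn2, as in 4.02% of genes tested. No gene of the 10 was lower in that way, as 2.57% were. With libraries scaled by their totals, calls over all genes were 449 lower and 165 higher with Tβ4, against 72 and 254 as deposited. The median of all genes was then -0.18 and that of the 10 was 1.12, against 1.31 as deposited. Without Tβ4 library 1 the calls of Acta2 (limma adjusted p = 0.051), Tagln (0.0891) and Myl9 (0.0846) did not hold and 2 genes were called, Ccn1 and Ccn2, which were called in all 8 fits that left out 1 library. The call of Myl9 also did not hold without Tβ10 library 4 (limma adjusted p = 0.0539).

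Between NP24 and Tβ4, 4 genes were called and all were lower with NP24: Acta2, Myl9, Ccn1 and Ccn2, where 2.09% of genes were called, 1.65% as lower with NP24 and 0.442% as higher. Ccn2 averaged 21.9 ± 15.7 with NP24 and 257 ± 115 with Tβ4 (SD, n = 4 each), a difference of -3.72 (SE 0.51, limma adjusted p = 0.000459). Acta2 differed by -3.99 (SE 0.56, limma adjusted p = 0.000708), Myl9 by -3.03 (SE 0.61, limma adjusted p = 0.012) and Ccn1 by -1.93 (SE 0.28, limma adjusted p = 0.000753). Tagln lay just outside the threshold at -1.18 (limma adjusted p = 0.0506), although its groups, like those of the 4 genes called, did not overlap, as in 4.65% of genes tested. It was called with TMM, a pseudocount of 10, edgeR and DESeq2. No gene of the 10 lay higher in that way, as 2.89% did. With libraries scaled by their totals, calls over all genes were 269 lower and 363 higher with NP24, against 400 and 107 as deposited. The median of all genes was then 0.13 and that of the 10 was -1.14, against -1.28 as deposited. Leaving out Tβ4 library 2 raised the number called to 7, in a fit whose calls over all genes are not given here. DESeq2 also called 7, where it called 1172 of all 24232 genes, against 507 by limma. Leaving out Tβ4 library 1 ended the call of Myl9 (limma adjusted p = 0.0663), as did a fit of the 8 libraries of the pair (limma adjusted p = 0.0767). Vcl was not called (-0.52, limma adjusted p = 0.0738), but DESeq2 called it lower with NP24 (adjusted p = 0.0329), as did limma without Tβ4 library 3 (adjusted p = 0.0244). Acta2, Ccn1 and Ccn2 were called in all 8 fits that left out 1 library.

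Between NP24 and Tβ10, limma, edgeR and DESeq2 called 0 of the 10 genes and 0 of all 24232 (0%), with 591, 532 and 664 of all genes and 0 of the 10 at an unadjusted p under 0.05. Of the 10 estimates, 5 were negative and 5 positive. No gene of the 10 had groups that did not overlap, as 1.35% of genes had with NP24 lower and 0.755% with NP24 higher. The interval of the difference was narrow for Flna, -0.15 (95% interval -0.41 to 0.12), and for Srf, 0.12 (-0.24 to 0.48). It was wide for Ccn2, 0.01 (-1.04 to 1.06), for Myl9, -0.02 (-1.29 to 1.26), and for Acta2, -0.97 (-2.14 to 0.20), so differences of up to several fold between NP24 and Tβ10 in those genes were not detectable here. Flna did not differ detectably between any pair of peptides, with -0.07 for NP24 minus Tβ4 (-0.34 to 0.19), which was 0.07 with libraries scaled by their totals, and -0.08 for Tβ4 minus Tβ10 (-0.34 to 0.19).

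**Figure D3:**
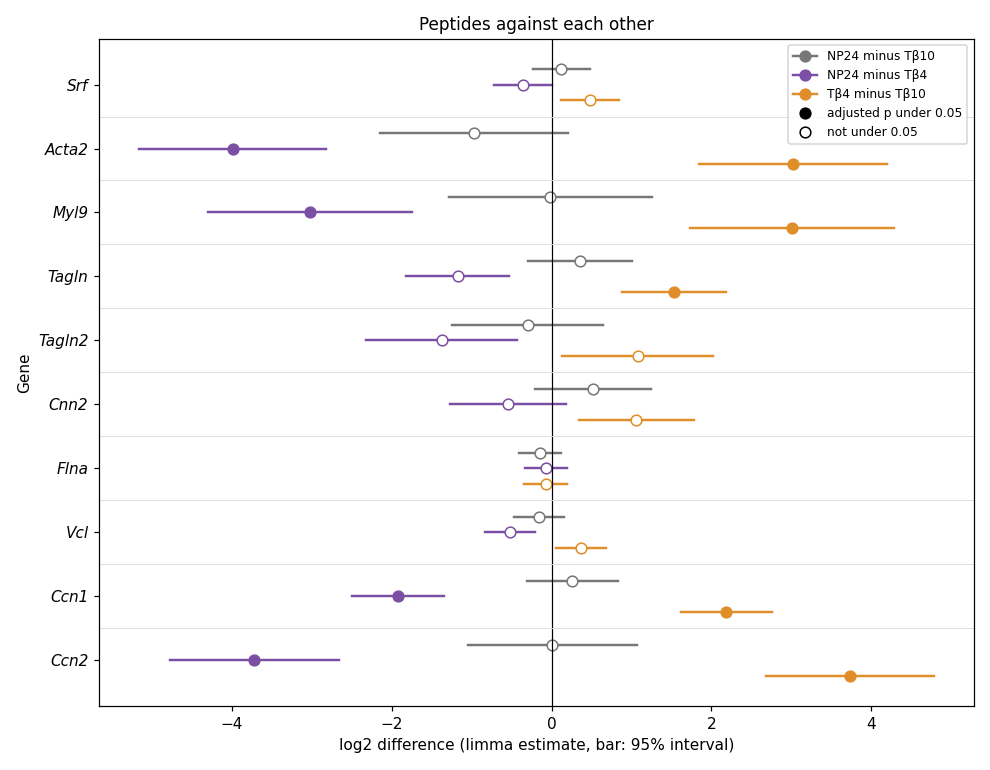
Log2 difference of each of the 10 genes between peptides, NP24 minus Tβ10, NP24 minus Tβ4 and Tβ4 minus Tβ10 (limma estimate from all 16 libraries, bar for the 95% interval, filled where the adjusted p was under 0.05). Acta2, Myl9, Ccn1 and Ccn2 are lower with NP24 than with Tβ4 and higher with Tβ4 than with Tβ10, while the estimates of Flna lie between -0.15 and -0.07 (with libraries scaled by their totals, NP24 minus Tβ4 is 0.07).

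Levels of different genes were compared per kilobase of exon. In the controls the order ran from Flna (799 ± 41.2 normalized counts per kilobase, SD, n = 4) over Srf (221 ± 18.3), Vcl (117 ± 2.11), Ccn1 (81.0 ± 21.8) and Acta2 (56.5 ± 26.9) to Cnn2, the lowest (17.9 ± 4.59). With NP24 Acta2 was the lowest of the 10 (7.59 ± 9.01 per kilobase), next to Ccn2 (7.64 ± 5.50) and Myl9 (8.50 ± 8.02), whose libraries overlapped its own. With Tβ10 the lowest were Myl9 (6.11 ± 2.17 per kilobase) and Ccn2 (6.60 ± 3.95). With Tβ4 Ccn1 (144 ± 41.9 per kilobase) stood beside Vcl (138 ± 27.2), and Ccn2 (89.7 ± 40.3) beside Acta2 (92.3 ± 33.9). The genes also differed in how far their group means ranged: the highest group mean was 13.6 times the lowest for Ccn2, 12.2 times for Acta2, 9.05 times for Myl9 and 4.63 times for Ccn1, and between 1.43 and 3.03 times for the other 6.

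The genes did not all vary together within groups. Across the 16 libraries, deviations from the group mean of log2 levels had a Pearson r of 0.82 between Srf and Ccn1, 0.73 between Ccn2 and Tagln2 and 0.68 between Acta2 and Myl9. They had an r of -0.63 between Srf and Vcl and -0.61 between Flna and Cnn2. Of the 45 pairs 28 had a positive r, with a median of 0.20, against 43 of 45 and a median of 0.64 when the differences between groups were kept in. In each pair both genes come from the same 16 libraries and so share each library's depth and scaling, and no test was made of these values. Among 12577 genes with a mean of at least 50 normalized counts, those most like Acta2 over the 16 libraries were the collagen gene Col3a1 (r = 0.93), H19, Wipi1, Lamp2 and Igfbp7. Those most like Ccn2 were the fibronectin gene Fn1 (r = 0.93), Npas4, Ahnak, Dusp10 and Lonrf3, and those most like Srf were Nes (r = 0.92), Slc3a2, Igfbp3, Irf2bp2 and Atf4.

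Other genes of the pathways were read from lists. Of 34 further cytoskeletal targets of SRF and MRTF, 30 were tested with NP24 and 6 fell and none rose, Zyx, Cald1 and Myh9 among those that fell, and the list's median was -0.31. The count was 1 with libraries scaled by their totals, 0 without NP24 library 3 or control library 1 or 4, 1 without NP24 library 1 or control library 2 or 3, and 3 without NP24 library 4. Zyx, which encodes the adhesion protein zyxin, averaged 341 ± 33.6 with NP24 and 532 ± 117 in the controls (SD, n = 4 each; -0.62, limma adjusted p = 0.0329), and Cald1, caldesmon, averaged 871 ± 104 with NP24 and 1159 ± 82.1 in the controls (-0.42, limma adjusted p = 0.0473). With Tβ10 1 of 31 fell, Zyx (-0.78, limma adjusted p = 0.0471), and the median was -0.20. That count was 0 without Tβ10 library 3 or any 1 of the controls and 3 without Tβ10 library 1 or 2. With Tβ4 limma called 0 of 32, with 6 at an unadjusted p under 0.05 and 1 called by DESeq2, and the median was 0.14, with Itga5, an integrin subunit, at 0.99 (limma adjusted p = 0.442). Lower with NP24 than with Tβ4 were 7 of 32, among them Cald1, Myh9 and Flnc, and 5 of 32 were higher with Tβ4 than with Tβ10. Against the control, Actb and Actg1, the cytoplasmic actins, gave 0.08 and -0.12 with NP24, -0.05 and -0.34 with Tβ10 and -0.17 and -0.45 with Tβ4. Neither was called with any peptide.

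Of 22 further YAP and TAZ targets, 20 were tested with NP24 and 3 fell: Ptpn14, a phosphatase (192 ± 32.9 with NP24 and 387 ± 40.3 in the controls, SD, n = 4 each; -1.01, limma adjusted p = 0.0023), Myof, myoferlin (-1.13, limma adjusted p = 0.0394), and Igfbp3 (-0.85, limma adjusted p = 0.0274). With Tβ10 2 of 20 fell, Ptpn14 (-0.80) and Myof (-1.29), and with Tβ4 limma called 0 of 21, with 4 at an unadjusted p under 0.05 and 2 called without Tβ4 library 2. The NP24 count was 1 without NP24 library 3 or control library 1, 2 or 4, and the Tβ10 count was 0 with libraries scaled by their totals or without Tβ10 library 3 or 4 or control library 1, 2 or 4, and 1 without control library 3. Between peptides, 6 of 21 were lower with NP24 than with Tβ4 and 5 of 21 were higher with Tβ4 than with Tβ10, Ptpn14, Myof, Fstl1 and Tgfb2 in both counts. Of the 18 pathway components, Wwtr1, which encodes TAZ, fell with NP24 (263 ± 9.28 with NP24 and 406 ± 50.7 in the controls, SD, n = 4 each; -0.62, limma adjusted p = 0.0274), a call that did not hold without NP24 library 1 or 3 or control library 1 or 4. With Tβ4 Wwtr1 stood at 613 ± 83.9 and Yap1 at 434 ± 54.4, against 406 ± 50.7 and 264 ± 70.1 in the controls; their groups did not overlap, and neither passed (0.59 and 0.74, limma adjusted p = 0.458 for both). Both were higher with Tβ4 than with Tβ10, Wwtr1 by 0.94 (limma adjusted p = 0.00159) and Yap1 by 0.97 (limma adjusted p = 0.0084).

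SRF also acts with ternary complex factors on genes induced within a short time of stimulation. Of 14 such genes, a list that includes Srf, 5 fell with NP24 (Egr1, Btg2, Dusp1, Ier2 and Srf) and 4 with Tβ10 (Egr1, Btg2, Ier2 and Srf), with medians of -0.42 and -0.60, and limma called 0 with Tβ4, where 4 had an unadjusted p under 0.05. The NP24 count was 3 without NP24 library 4 and 2 without NP24 library 1 or 3 or any 1 of the controls. The Tβ10 count was 2 without Tβ10 library 3 or 4 or control library 2, 3 or 4 or with libraries scaled by their totals, and 1 without control library 1. Egr1 had the largest difference in both, -1.51 with NP24 (limma adjusted p = 7.21e-05) and -1.59 with Tβ10 (limma adjusted p = 0.000123). The 15 SRF and MRTF factors and regulators, of which 14 were tested, held 0 calls by limma, edgeR or DESeq2 against the control, with medians between -0.02 and 0.04. In this list 2, 1 and 1 genes had an unadjusted limma p under 0.05 with NP24, Tβ10 and Tβ4. Of all genes tested, 3710 of 21774, 2454 of 21960 and 1568 of 22205 had such a p. Scai had the smallest p of this list with NP24 (0.35, limma adjusted p = 0.063) and with Tβ10 (0.26, limma adjusted p = 0.333), and was not called. Mrtfa averaged 2250 ± 167 with NP24 and 1916 ± 51.3 in the controls (SD, n = 4 each), a difference of 0.23 (limma adjusted p = 0.192). Of the other 4 CCN family genes 3 were tested against the control, and limma called 0 of them, with 0 at an unadjusted p under 0.05.

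**Figure D4:**
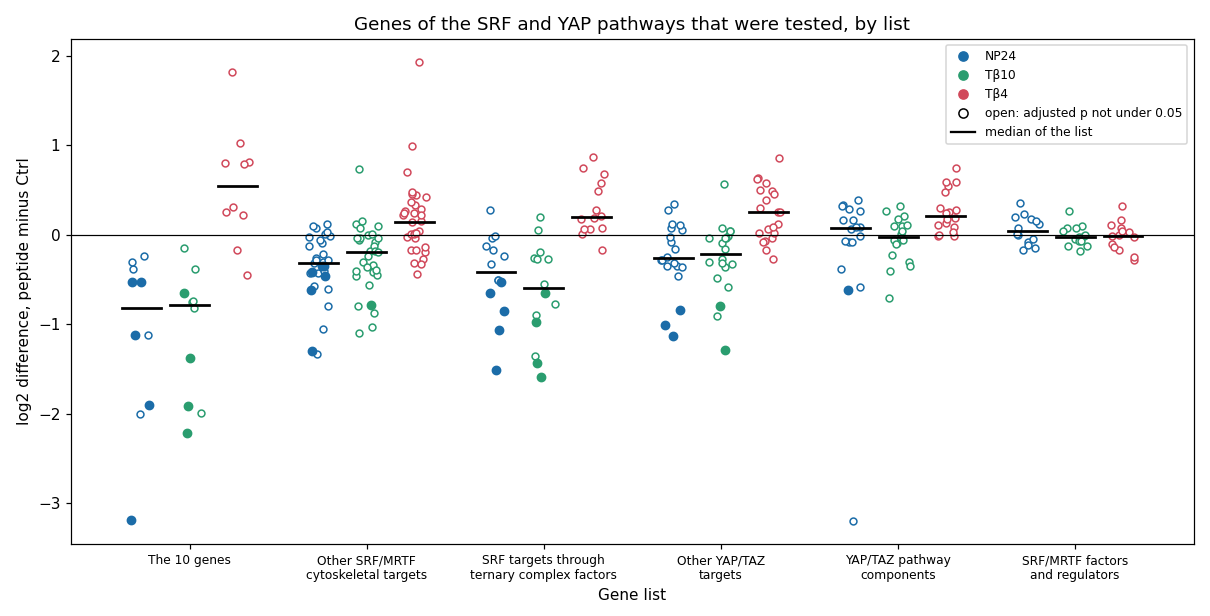
Log2 difference, peptide minus control, of every tested gene in each pathway list (points, filled where the limma adjusted p was under 0.05; the black line is the list's median), with NP24, Tβ10 and Tβ4 side by side for each list. The medians of the 10 genes are -0.82, -0.79 and 0.55, and those of the SRF and MRTF factors and regulators lie between -0.02 and 0.04.

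Some markers of other cell types moved in the direction of the 10 genes. The 11 mural cell markers, genes of pericytes and smooth muscle, summed to 717 to 965 normalized counts with NP24, 696 to 856 with Tβ10, 1389 to 2561 with Tβ4 and 898 to 1450 in the controls. Of those tested, 3 of 6 fell with NP24 (Pdgfrb, Rgs5 and Anpep) and 2 of 7 with Tβ10 (Pdgfrb and Rgs5), and Des was at 0 in all NP24 libraries. Anpep (2.45 ± 3.09 with NP24, SD, n = 4) entered the NP24 fit only through the controls, where it is high, and had to differ. The mural counts were 0 with both peptides without control library 1 or 4, and with Tβ10 they were 0 without Tβ10 library 4 or control library 3 and 1 without Tβ10 library 3 or control library 2. The 9 fibroblast and meningeal markers summed to 2054 to 2409 with NP24, 1936 to 2518 with Tβ10, 3187 to 5285 with Tβ4 and 2734 to 3502 in the controls, where Lum was at 0. Of those tested, 4 of 6 fell with NP24 (Col1a1, Col1a2, Col3a1 and Fn1) and 3 of 6 with Tβ10, the collagens; without control library 1 these counts were 1 and 1, and without control library 4 they were 2 and 1, and the NP24 count was 2 without NP24 library 3. With Tβ4 limma called none of either list, with 3 mural and 4 fibroblast genes at an unadjusted p under 0.05, and without Tβ4 library 2 it called 2 and 4 of them higher. The fibroblast sums of all NP24 and Tβ10 libraries lay below those of all controls, as did the mural sums with Tβ10, while the mural sums overlapped between NP24 and the controls. In the controls Fn1 (mean 1490) and Pdgfra (1222) held most of the fibroblast sum (mean 3025), and Dcn averaged 2.10. Cspg4 (403) and Notch3 (266) held most of the mural sum (mean 1121). Limma called none of Pdgfra, Cspg4 and Notch3 with NP24 or Tβ10. These sums thus follow a few genes more than the rest of each list.

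Within groups the 10 genes differed in how they followed these sums. Deviations from the group mean had an r with the fibroblast marker sum of 0.83 for Srf, 0.81 for Ccn1 and 0.62 for Ccn2 and Tagln2, but -0.55 for Vcl, -0.44 for Flna and 0.10 for Myl9, over 16 libraries. This was not particular to the fibroblast sum. Srf had an r of -0.79 with the neuron, 0.72 with the microglia and macrophage and 0.68 with the mural sum. With the share of mitochondrial ribosomal RNA it had 0.70. Ccn1 had 0.64 with the microglia and macrophage and 0.62 with the mural sum, and Vcl -0.35 and -0.41. Tβ4 library 1 had the highest mural, fibroblast and endothelial sums and the highest Acta2, Myl9, Tagln, Srf, Ccn1 and Ccn2 of its group, and Tβ4 library 2 had the lowest mural and fibroblast sums and the lowest Acta2, Srf, Ccn1 and Ccn2. Vcl and Flna did not follow. Vcl was highest in Tβ4 library 2 (1408, against 873 to 1176 in the others of the group), and Flna was 5124 in library 1 and 5715 in library 2. The 8 endothelial markers summed to 60.2 to 162 with NP24, 78.8 to 160 with Tβ10, 98.6 to 632 with Tβ4 and 127 to 174 in the controls. Of these, Cldn5 and Ly6c1 were at 0 with NP24 and Tβ10 and Ly6c1 in the controls, and limma called 0 of 3 tested with any peptide, with 1, 1 and 0 at an unadjusted p under 0.05 with NP24, Tβ10 and Tβ4. Over all genes tested such a p was found for 3710 of 21774, 2454 of 21960 and 1568 of 22205. Microglia and macrophage markers, 12 genes, summed to 1815 to 1946 with NP24, 1723 to 2150 with Tβ10, 2218 to 3147 with Tβ4 and 2075 to 2532 in the controls, with Tmem119 at 0 with Tβ10, and 4 of 8 tested fell with NP24 and 2 of 10 with Tβ10 (1 and 0 without control library 1, with Tβ10 also 0 without control library 4, 1 without Tβ10 library 3 or control library 2, and 4 without Tβ10 library 2). The most abundant of these markers, Cx3cr1 and P2ry12, were not called with any peptide. Cx3cr1 averaged 1362 with NP24, 1399 with Tβ10 and 1304 in the controls (log2 differences 0.06 and 0.09). P2ry12 averaged 295, 340 and 371 (-0.31 and -0.11).

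Neuron markers, 10 genes, summed to 70569 to 77372 with NP24, 69317 to 76068 with Tβ10, 52811 to 78280 with Tβ4 and 62926 to 70047 in the controls, and limma called 0 of them, with 3, 2 and 0 at an unadjusted p under 0.05 with NP24, Tβ10 and Tβ4. Among all genes tested 3710 of 21774, 2454 of 21960 and 1568 of 22205 were at that level. Astrocyte markers, 9 genes, summed to 10400 to 11186 with NP24, 8560 to 12382 with Tβ10, 10796 to 14649 with Tβ4 and 8570 to 10356 in the controls, with Aqp4 called higher with NP24 (1.70) and Tβ10 (1.67) and at 1.37 with Tβ4 (limma adjusted p = 0.442), with no overlap with the controls in any of them, and of 7 oligodendrocyte lineage markers Mbp and Olig2 fell with NP24. Mitochondrial ribosomal RNA took 5.98 to 8.12% of reads with NP24, 4.76 to 9.53% with Tβ10, 8.25 to 24.3% with Tβ4 and 9.32 to 14.2% in the controls. The part of these cell types and of that share in the values of the 10 genes was not tested.

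**Figure D5:**
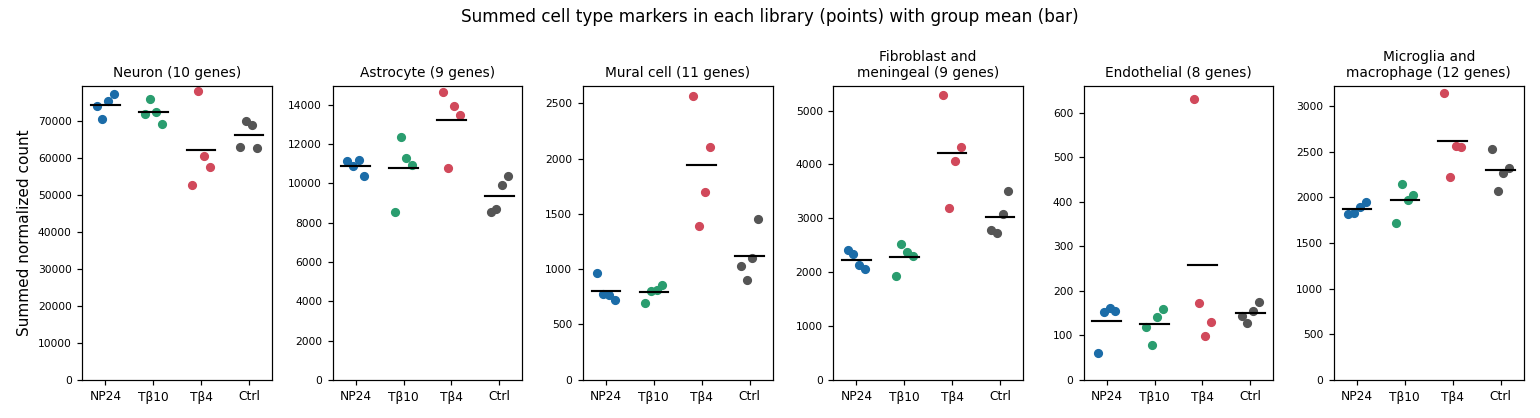
Summed normalized counts of cell type markers in each library, for neuron, astrocyte, mural cell, fibroblast and meningeal, endothelial, and microglia and macrophage markers (points for libraries, bar for the group mean, axes from 0), in NP24, Tβ10, Tβ4 and the control. The fibroblast sums are 2054 to 2409 with NP24 and 1936 to 2518 with Tβ10, below the 2734 to 3502 of the controls, and 3187 to 5285 with Tβ4. Fn1 and Pdgfra hold most of these fibroblast sums.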

How the data were processed

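Total RNA from cultured neurons was extracted with the RNeasy Micro Kit and made into SMARTer Stranded Total RNA-Seq libraries, per the labels' protocols. FastQC, HISAT, HISAT2, featureCounts and DESeq2 and the build GRCm38 are named in the submitters' processing notes; the strand setting of the counting is not given in the sources used here. The authors deposited 3 tables, each a peptide against Ctrl, which hold the same library values within a relative 4.9e-07. The library values, a signal that is never negative, are the authors' read counts scaled by a size factor: 100% came out as whole reads (tolerance 0.01 reads). The authors' log2 fold changes, p-values and test statistic (a score) in those deposited tables were used only where the authors' deposited table is named.

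Because the deposited values are normalized, the main test was limma (version 3.58.1 in R 4.3.3; limma-trend) on log2(value + 1), with genes at 10 or more in at least 4 libraries of the fit, a Benjamini-Hochberg threshold of 0.05, 8 libraries for a peptide against Ctrl and all 16 for pairs of peptides. edgeR 4.0.16 (quasi-likelihood) and DESeq2 1.42.0 were run on the recovered reads as alternatives, beside library totals, TMM, pseudocounts of 0.1 and 10, no filter, a replicate block, other libraries in the fit and leaving out each library in turn. The fit was tested on simulated data. Groups and replicate numbers came from the labels. Same-numbered libraries did not deviate together (r from -0.302 to 0.113, over 0.1 in 1 pair), so the numbers were not taken to pair them. Libraries of a group differed beyond counting noise (lowest chi-square per degree of freedom 8.94).

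The members and gene lists were chosen with earlier results of these data known. The rule for named genes was the 10 members, up to 4 genes of each list with the smallest p against Ctrl, and the 5 genes most like Acta2, Ccn2 and Srf; other genes that were called in a list, the cytoplasmic actins and overlapping genes were named after their values were seen. Positions and exon lengths are from the GENCODE annotation of GRCm38, promoters from RefSeq. Mean ± SD is over 4 libraries.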

Additional observations from a re-analysis of the deposited data

Results flagged for a closer look

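In 40 groups of 4 libraries, 1 per gene and group, 2 had a library far from the others, and chance gives such a gap in about 1 in 20 groups. Acta2 had 46.3 normalized counts in NP24 library 1, against 5.80 to 7.46 in the other NP24 libraries. Myl9 had 102 normalized counts in Tβ4 library 1, against 49.7 to 53.8 in the other Tβ4 libraries.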

How the results depend on the processing

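Numbers of the 10 genes called ran, over the fits that left out 1 library, from 2 to 5 for NP24 minus Ctrl, 0 to 5 for Tβ10 minus Ctrl, 0 to 3 for Tβ4 minus Ctrl, 0 to 0 for NP24 minus Tβ10, 3 to 7 for NP24 minus Tβ4 and 2 to 6 for Tβ4 minus Tβ10. For NP24 minus Ctrl the number was 3 with no filter on low values and 1 with all 16 libraries in the fit. For Tβ10 minus Ctrl it was 2 with library totals and 1 with all 16 libraries. DESeq2 gave 2 for Tβ4 minus Ctrl and 7 for NP24 minus Tβ4, where it called 82 of all 22205 and 1172 of all 24232 genes. The replicate block gave 4, 1 and 0 for NP24, Tβ10 and Tβ4 minus Ctrl and 0, 4 and 5 for NP24 minus Tβ10, NP24 minus Tβ4 and Tβ4 minus Tβ10. The cause of these changes was not tested.

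None of the differences that changed sign was called in the main fit. Srf, Tβ4 minus Ctrl, ran from -0.30 to 0.027 over the fits that left out 1 library. For NP24 minus Tβ10, Ccn2 was -0.031 with library totals, -0.00270 with TMM, -0.013 with a pseudocount of 0.1 and -0.41 to 0.59 when 1 library was left out; Myl9 was 0.11 with a pseudocount of 10, 0.43 with edgeR, 0.44 with DESeq2 and -0.55 to 0.61 when 1 library was left out; and Tagln2 was -0.56 to 0.15 when 1 library was left out. Flna was 0.070 for NP24 minus Tβ4 with library totals and -0.16 to 0.035 for Tβ4 minus Tβ10 when 1 library was left out. Of the single-gene differences that left out 1 library, 406 kept their sign and side of the threshold, 46 lost a call, 10 gained one and 14 changed sign. Myl9 for Tβ10 minus Ctrl could be fitted in 4 of 8 such fits, since it failed the filter without any 1 control library. Depth limits Acta2, Ccn2 and Myl9 with NP24 and Tβ10, where single libraries held as few as 5, 5 and 1 reads with NP24 and 6, 6 and 2 with Tβ10.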
